A study of Mus musculus with 18 samples.

Results

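Ahcy, Gm14226, Gm14139 and Slc52a3 are 4 of the 31053 mouse genes counted in single-cell transcriptomes of mouse embryos at embryonic day 8.5 (E8.5). They were selected on their measured levels in Dnmt3b KO against WT embryos and because each lies on chromosome 2 within 5 Mb of Dnmt3b, so the Dnmt3b KO levels below are descriptions, with no test. The members were the genes with these symbols, and their unique molecular identifiers (UMIs) were summed over every barcode with 1500 or more mouse UMIs. All 4 passed the filter on low counts, as did 18836 genes in all. The study set WT embryos against embryos null for 1 DNA methyltransferase to ask what each enzyme does during early organogenesis. There were 18 libraries, each from a single E8.5 embryo: 7 WT, 4 Dnmt3b KO, 4 Dnmt3a KO and 3 Dnmt1 KO. The labels give one strain background, 129S4/SvJae, and no drug treatment for any group. Per the methods of the study, embryos came from matings of heterozygous parents, and the mutation was inherited, so it was carried by all cells of a KO embryo; genotypes were read by PCR. Levels are given in CPM, the UMIs of the gene per 1e6 UMIs of the library, and the 3′ chemistry counts 1 end of each transcript, so CPM is not divided by gene length.

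DNA methyltransferases move a methyl group from S-adenosylmethionine to cytosine, with DNMT1 copying existing methylation at cell division and DNMT3A and DNMT3B adding it to unmarked sites. The reaction leaves S-adenosylhomocysteine, which inhibits methyltransferases, and AHCY is the enzyme that splits this product into adenosine and homocysteine. SLC52A3 is a plasma membrane transporter of riboflavin, the vitamin from which the flavin cofactors FMN and FAD are made. Gm14226 and Gm14139 are annotated as protein-coding genes under provisional names.

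In mm10, Ahcy (ENSMUSG00000027597) covers bases 155059310 to 155074497 of chromosome 2 on the minus strand, 1.372 Mb from Dnmt3b. Gm14226 (ENSMUSG00000084897) lies on the plus strand at 155018266 to 155027104, 32.2 kb from Ahcy and 1.331 Mb from Dnmt3b. On the other side of Dnmt3b, Slc52a3 (ENSMUSG00000027463) lies on the plus strand at 151996511 to 152009258, 1.64 Mb away. The most distant member was Gm14139 (ENSMUSG00000079009), on the plus strand at 150181755 to 150193279 and 3.456 Mb away. Dnmt3b itself covers 153649450 to 153687730 on the plus strand. Gm14226 sits inside the longer gene a on the same strand, and the 5′ end of Ahcy overlaps the antisense gene Gm45609.

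Depth ranged from 38742721 to 262580123 UMIs over 1628 to 15427 barcodes per library. Dnmt3b KO 1 and Dnmt3b KO 2 shared 9149 cell barcodes, 80.4% of the first and 83.1% of the second, whereas each of the remaining pairs had 43 or fewer in common. Both were therefore counted as 1 embryo, by their mean, and Dnmt3b KO has n = 3 in each mean and SD. In the labelled targets, Dnmt1 was 14.9, 15.6 and 15 CPM in Dnmt1 KO against 83.7 to 113.5 CPM in WT, and Dnmt3a was 7.59 to 11.8 CPM in Dnmt3a KO against 23.5 to 34.5 CPM in WT. Dnmt3b was 54.4, 61.0, 63.3 and 68.3 CPM in Dnmt3b KO, inside the WT range of 35.9 to 87.1 CPM, so the 3′ counts do not check the Dnmt3b KO label. In Dnmt3b KO 11 and 12, Dnmt3a was 15.1 and 7.65 CPM, both below every WT library and the second within the Dnmt3a KO range, whereas Dnmt3b KO 1 and 2 were both at 32.5 CPM. Whole-embryo ratios of the members, class counts and counts of neighbours are also given with 1 of these libraries left out at a time. Only class counts of Ahcy, Gm14226 and Gm14139 are also given without both.

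Ahcy was the most abundant member and was lower in every Dnmt3b KO library than in any other library. WT embryos ranged from 17.5 to 24.7 CPM with a median of 21.6 CPM, a mean of 20.8 ± 2.65 CPM (SD, n = 7). Dnmt3b KO 1, 2, 11 and 12 had 5.79, 8.79, 6.78 and 8.03 CPM, a mean of 7.37 ± 0.63 CPM (SD, n = 3) or 35.3% of the WT mean. In whole-embryo sums, fewer cells of a type and less RNA per cell cannot be told apart. The counts behind these libraries were 861, 1454, 1779 and 1429 UMIs, against 852 to 4897 UMIs in WT. On the fitted scale, the log2 ratio of Dnmt3b KO to WT was -1.53, and it was -1.51 without Dnmt3b KO 11 and -1.57 without Dnmt3b KO 12. Over all tested genes, 0.796% had every Dnmt3b KO unit below every WT unit and 0.0372% were called lower in this comparison; the choice of the members fixed their own place in it.

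The levels that define the members are those of Dnmt3b KO and WT, but the choice was made with results of all groups known, and the same 7 WT embryos are the controls of the Dnmt1 KO and Dnmt3a KO tests, so these are not independent of it. Ahcy was tested there with edgeR's quasi-likelihood test, and a call needed both an adjusted p below 0.01 and a 1-unit or larger log2 fold change either way. Dnmt1 KO 1, 2 and 3 had 23.3, 18.5 and 22.3 CPM of Ahcy, all inside the WT range, with a log2 fold change of 0.12 (SE 0.12, edgeR adjusted p = 0.422). Dnmt3a KO 1, 2, 13 and 14 had 19.9, 13.8, 14.4 and 15.6 CPM, a mean of 15.9 ± 2.77 CPM (SD, n = 4). The last 3 of these lay below the lowest WT library, whereas Dnmt3a KO 1 lay inside the WT range, and the log2 fold change was -0.40 (SE 0.11, edgeR adjusted p = 0.141).

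**Figure D1:**
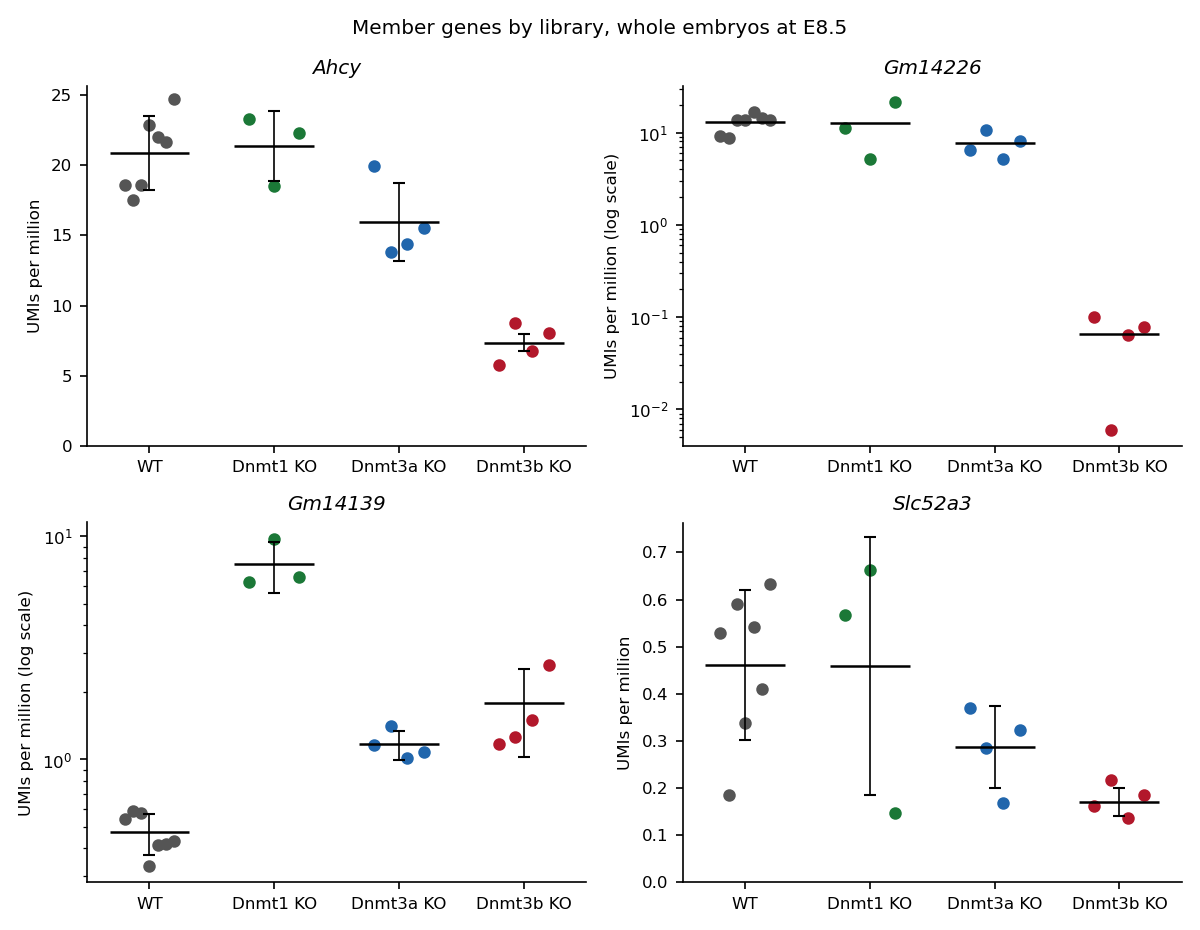
CPM of each member (vertical axes; log scale for Gm14226 and Gm14139) in every library of the 4 groups, 1 point per library, with the group mean as a line and 1 SD as bars except for Gm14226. The Dnmt3b KO points for Ahcy lie between 5.79 and 8.79 CPM, below all other libraries, those for Gm14226 at or below 0.101 CPM, and the Dnmt1 KO points for Gm14139 between 6.24 and 9.75 CPM, above all others.

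Some libraries also had counts on a gene that resembles Ahcy. Gm4737, on chromosome 16 at 46152985 to 46155077, is a near-identical copy of the Ahcy transcript, and it was looked at after its values were seen. Its annotated transcript matched bases 42 to 2124 of the 2543 bases of the Ahcy transcript with 6 substitutions, an identity of 99.7%, and the last 419 bases of Ahcy lie beyond the match. Of the substitutions, C564T, G579A, C1155T and C1173T are in the Ahcy coding sequence and A1712T and G1716T in its 3′ untranslated region, with positions counted from 1 at the 5′ end of the Ahcy transcript and the Ahcy base first. The stretches around the coding substitutions are shown to give the places where the matched coding parts differ, with the differing bases in capitals. The first covers bases 539 to 589 of Ahcy and the second bases 1130 to 1180.

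Ahcy, first stretch: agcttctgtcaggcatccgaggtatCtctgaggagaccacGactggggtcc
Gm4737, first stretch: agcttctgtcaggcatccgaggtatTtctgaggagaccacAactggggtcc
Ahcy, second stretch: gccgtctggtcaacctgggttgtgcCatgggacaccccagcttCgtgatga
Gm4737, second stretch: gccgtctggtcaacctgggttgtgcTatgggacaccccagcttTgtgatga

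Gm4737 was at 2.52 to 8.12 CPM in 8 libraries and at 0.289 to 0.640 CPM in the other 10. The 8 were WT 2, Dnmt3a KO 2, 13 and 14 and the 4 Dnmt3b KO libraries. Dnmt3a KO 2, 13 and 14 were also the Dnmt3a KO libraries with Ahcy below the WT range, and WT 2 had the lowest Ahcy level in WT. As a share of the sum of both genes, Gm4737 made up 56.5%, 27.9%, 48.4% and 50.3% in Dnmt3b KO 1, 2, 11 and 12 and 2.04%, 15.4%, 18.5% and 15.2% in Dnmt3a KO 1, 2, 13 and 14. In WT the share was 28% in WT 2 and 1.5% to 2.52% in the other 6 embryos, and in Dnmt1 KO it was 1.53% to 2.03%. The shares of Dnmt3b KO 1 and 2 do not overlap in their exact 95% binomial intervals, 54.3% to 58.7% and 26.0% to 30%, although these libraries share most of their barcodes.

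Adding both genes narrowed the gap between the groups without closing it. The sum of Ahcy and Gm4737 ranged from 18.9 to 25.3 CPM in WT, with a mean of 22.2 ± 2.48 CPM (SD, n = 7). In Dnmt3b KO 1, 2, 11 and 12 it was 13.3, 12.2, 13.1 and 16.2 CPM, a mean of 14 ± 1.87 CPM (SD, n = 3) and 63.2% of the WT mean, where Ahcy alone was at 35.3%. All 4 libraries stayed below the WT range, and the fitted log2 ratio was -0.70 in place of -1.53. In Dnmt3a KO the sum was 20.4, 16.4, 17.6 and 18.3 CPM, of which the first lay inside the WT range. Which transcripts gave the reads counted on Gm4737 was not tested, since the counts do not carry the bases that differ.

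**Figure D2:**
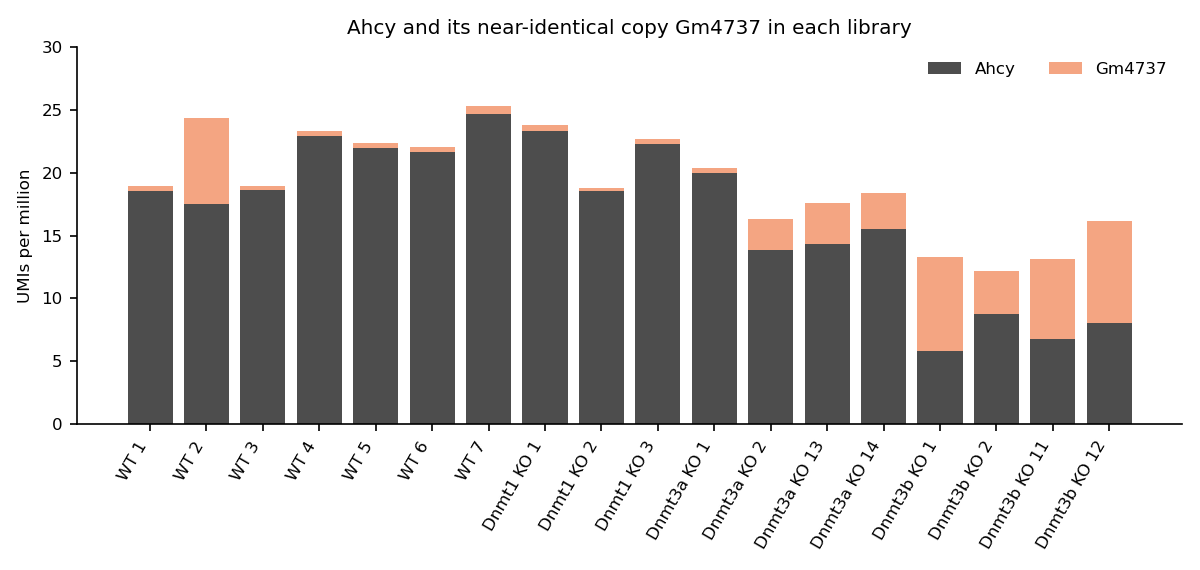
Stacked bars of the CPM of Ahcy (dark) and Gm4737 (light) in each of the 18 libraries, on a vertical axis in CPM from 0. The light part is visible in WT 2, in 3 of the 4 Dnmt3a KO libraries and in all 4 Dnmt3b KO libraries, where the whole bar still ends at 12.2 to 16.2 CPM, below the lowest WT bar at 18.9 CPM.

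Slc52a3 was a low-abundance gene, with a whole-embryo level of 0.19 to 0.63 CPM in WT, a median of 0.53 CPM and a mean of 0.462 ± 0.159 CPM (SD, n = 7). Dnmt3b KO 1, 2, 11 and 12 had 0.161, 0.218, 0.137 and 0.186 CPM, from 24 to 36 UMIs each, a mean of 0.171 ± 0.029 CPM (SD, n = 3) or 37.0% of the WT mean. They lay below 6 of the 7 WT embryos and overlapped WT only through WT 2, at 0.186 CPM. The fitted log2 ratio was -1.47, or -1.36 without Dnmt3b KO 11 and -1.52 without Dnmt3b KO 12. Dnmt1 KO 1, 2 and 3 spread from 0.567 and 0.664 CPM to 0.147 CPM, the last from 13 UMIs, with a log2 fold change of 0.09 (SE 0.38, edgeR adjusted p = 0.871). Dnmt3a KO 1, 2, 13 and 14 had 0.371, 0.286, 0.168 and 0.324 CPM, with a log2 fold change of -0.70 (SE 0.35, edgeR adjusted p = 0.555). The Dnmt3a KO libraries overlapped WT, and with a covariate for Y-linked expression the log2 fold change turned to 0.036 (edgeR adjusted p = 0.989).

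Gm14226 was close to absent from Dnmt3b KO embryos. WT embryos ranged from 8.65 to 16.6 CPM with a median of 13.7 CPM, a mean of 12.9 ± 2.89 CPM (SD, n = 7), from 643 to 3294 UMIs each. Dnmt3b KO 1, 2, 11 and 12 had 15, 1, 17 and 14 UMIs, which is 0.101, 0.0060, 0.0647 and 0.0787 CPM. The Dnmt3b KO mean of 0.066 ± 0.013 CPM (SD, n = 3) was 0.509% of the WT mean, a ratio of 196-fold, and all 4 libraries lay below the lowest of every other group. The fitted log2 ratio was -7.63, with -7.67 without Dnmt3b KO 11 and -7.74 without Dnmt3b KO 12. By sequence, 9 other annotated transcripts resemble parts of Gm14226, some on the opposite strand, and 7 of them are among the counted genes. Reads were not examined, so UMIs cannot be assigned to Gm14226 with certainty in either direction. The gene a, which encloses Gm14226 on the same strand, had 0.31 ± 0.11 CPM in WT (SD, n = 7) and 0.52 ± 0.13 CPM in Dnmt3b KO (SD, n = 3; log2 fold change 0.71, SE 0.38, edgeR adjusted p = 0.329).

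In the other KO groups Gm14226 was detected at levels that overlapped WT. Dnmt1 KO 1, 2 and 3 had 11.2, 5.19 and 21.2 CPM, 1 inside, 1 below and 1 above the WT range, with a log2 fold change of 0.07 (SE 0.30, edgeR adjusted p = 0.879). Leaving out Dnmt1 KO 3, the highest of these, turned the log2 fold change to -0.59 (edgeR adjusted p = 0.0941). A pair of genes that resemble parts of Gm14226 lay above WT in every Dnmt1 KO library and were highest in Dnmt1 KO 3. Gm35533 (AC167229.1 in the files) had 3.15 to 13.9 CPM against 0.0752 to 0.695 CPM in WT, and Gm37350 had 1.15 to 3.8 CPM against 0.00442 to 0.0619 CPM. In Dnmt3b KO they were at 0.363 to 1.37 CPM and 0.0665 to 0.309 CPM, and the other 5 counted copies were at or below 0.0135 CPM in every library. Their matches to Gm14226 do not reach the last 500 bases of its transcript, and their part in the Gm14226 counts was not tested. Dnmt3a KO 1, 2, 13 and 14 had 6.44, 10.6, 5.22 and 8.15 CPM, of which 3 lay below the lowest WT embryo, with a log2 fold change of -0.76 (SE 0.28, edgeR adjusted p = 0.351).

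Gm14139 went the other way from the other members in Dnmt3b KO and was above the WT range in all 11 KO libraries. WT embryos ranged from 0.33 to 0.59 CPM with a median of 0.43 CPM, a mean of 0.471 ± 0.096 CPM (SD, n = 7). Dnmt1 KO 1, 2 and 3 had 6.24, 9.75 and 6.57 CPM, a mean of 7.52 ± 1.94 CPM (SD, n = 3), 16-fold that of WT. This was a call, with a log2 fold change of 4.06 (SE 0.24, edgeR adjusted p = 2.17e-09), and it made Gm14139 the only 1 of the 4 members called in Dnmt1 KO, where 14.4% of all tested genes were called 8.26% higher and 6.1% lower. All values in Dnmt1 KO lay above WT, as did those of 10.4% of tested genes.

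Dnmt3a KO 1, 2, 13 and 14 had 1.16, 1.42, 1.02 and 1.08 CPM of Gm14139, a mean of 1.17 ± 0.17 CPM (SD, n = 4) and 2.49-fold that of WT. All 4 lay above the WT range, as did those of 2.08% of tested genes, but the log2 fold change of 1.28 (SE 0.23) narrowly missed the call with an edgeR adjusted p of 0.0107. None of the 4 members was called in Dnmt3a KO by edgeR, where 0.212% of all tested genes were (0.202% higher and 0.0106% lower); at an unadjusted p under 0.05 there were 3 of 4, Ahcy, Gm14226 and Gm14139, beside 9.49% of all tested genes, and DESeq2 called Gm14139 (log2 fold change 1.27, DESeq2 adjusted p = 2.94e-05). The call was also made without WT 2, without Dnmt1 KO 2 or without Dnmt3b KO 12, with edgeR adjusted p-values of 0.00672, 0.00966 and 0.00282. Dnmt3b KO 1, 2, 11 and 12 had 1.18, 1.26, 1.5 and 2.65 CPM, a mean of 1.79 ± 0.76 CPM (SD, n = 3) and 3.8-fold that of WT, all above the WT range. In that comparison, 5.73% of tested genes had every Dnmt3b KO unit above WT and 1.93% were called higher. The fitted log2 ratio in Dnmt3b KO was 1.86, or 1.94 without Dnmt3b KO 11 and 1.5 without Dnmt3b KO 12, the library with the highest level.

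CpG sites are the substrate of the DNA methyltransferases, and RefSeq promoters on GRCm38.p6 were given for 2 of the 4 members, Ahcy and Gm14139, which differed in the direction of their levels. The 250 bases before each start are shown 5′ to 3′ on the strand of the gene, with each CpG (the letters CG) in capitals. The first is chr2:155074498-155074747 on the minus strand and the second chr2:150181505-150181754 on the plus strand.

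Ahcy promoter: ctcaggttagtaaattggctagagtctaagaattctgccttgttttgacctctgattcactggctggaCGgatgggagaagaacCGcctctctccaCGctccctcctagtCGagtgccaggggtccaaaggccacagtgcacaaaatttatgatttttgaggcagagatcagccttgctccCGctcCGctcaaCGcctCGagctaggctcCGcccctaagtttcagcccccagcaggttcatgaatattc
Gm14139 promoter: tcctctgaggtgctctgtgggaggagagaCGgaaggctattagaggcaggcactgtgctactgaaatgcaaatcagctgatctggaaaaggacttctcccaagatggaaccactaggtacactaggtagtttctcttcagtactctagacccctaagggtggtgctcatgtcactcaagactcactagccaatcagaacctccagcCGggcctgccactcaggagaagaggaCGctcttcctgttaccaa

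The Ahcy promoter held 9 CpG sites and that of Gm14139 held 3. Over 32851 promoters of the same length, the median was 6 CpG sites, 40.3% held at least 9 and 71.0% held at least 3. Methylation was not measured in these files.

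Cell classes were rebuilt by clustering, without the members, and named from marker genes. Each class was compared with the remaining cells of the same embryo by an exact two-sided sign-flip permutation test on log2(CPM + 1), with 68 tests adjusted together and 0.0156 as the smallest p that 7 embryos allow. Allantois had 5 embryos, which allow no p under 0.0625, so this class could not pass and counts among those that did not. Ahcy was higher in 6 of 17 classes and lower in 6. It was highest in presomitic mesoderm, the tissue that buds into somites, at 28.3 ± 2.73 CPM (SD, n = 7), and in neuromesodermal progenitors (NMP) at 27.8 ± 3.95 CPM (SD, n = 7), and lowest in extraembryonic (ExE) mesoderm at 15.5 ± 3.28 CPM (SD, n = 7). All 7 embryos showed the direction in these 3 classes (exact permutation test, adjusted p = 0.0231 each). Neighbours in the order of the 17 means differed by less than the larger of their SDs, and the classes in the middle, such as neural crest, immune and surface ectoderm cells, did not pass the test.

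In WT, Gm14226 was concentrated in mesoderm of the trunk and head. It had 115.9 ± 14.9 CPM in presomitic mesoderm (SD, n = 7) against 8.90 ± 1.87 CPM in the other cells of the same embryos, and it was higher in 7 of 7 embryos (exact permutation test, adjusted p = 0.0231). Cranial mesenchyme followed with 31.2 ± 5.92 CPM (7 of 7 embryos; exact permutation test, adjusted p = 0.0231) and somitic mesoderm with 17.8 ± 5.80 CPM (6 of 7 embryos; exact permutation test, adjusted p = 0.0394). It was lower in 12 classes, with means of 0.125 to 3.94 CPM. Presomitic mesoderm held 25.4% to 43.4% of the Gm14226 UMIs of a WT embryo, and cells of clusters that could not be named held 26.3% to 42.9%.

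Gm14139 and Slc52a3 shared a tissue in WT. Both were higher only in ExE endoderm, the yolk sac layer that exchanges nutrients with the mother, among the 17 classes, of which allantois could not pass. Gm14139 had 2.28 ± 0.59 CPM there (SD, n = 7) against 0.18 ± 0.12 CPM in the other cells, and Slc52a3 had 2.67 ± 0.61 CPM against 0.086 ± 0.032 CPM, each higher in 7 of 7 embryos (exact permutation test, adjusted p = 0.0231 each). ExE endoderm made up 9.47% to 19.9% of the cells of a WT embryo and held 57.6% to 93.1% of its Slc52a3 UMIs and 32.3% to 84.7% of its Gm14139 UMIs. In 6 of the 17 classes no Slc52a3 UMI was counted in any WT embryo. The largest of these, somitic mesoderm, has a depth over the 7 embryos at which a count of 0 allows up to 0.046 CPM. ExE ectoderm had too few WT cells for this test, and in 1 WT embryo it held 44.4% of the Gm14139 UMIs.

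In Dnmt3b KO embryos Ahcy counts were lower than in WT in each class compared. In 16 of 16 classes with at least 25 cells in 3 or more embryos, every Dnmt3b KO library lay below every WT embryo, with Dnmt3b KO means at 30.3% to 43.4% of WT. The lowest share was in erythroid cells, the primitive blood, with 16.2 ± 2.59 CPM in WT (SD, n = 7) and 4.92 ± 0.14 CPM in Dnmt3b KO (SD, n = 3). The 4 Dnmt3b KO libraries ran from 3.59 to 6.42 CPM there. This SD does not show that spread, because Dnmt3b KO 1 and 2 enter it as their mean. The highest share was in hindbrain and spinal cord, with 25.4 ± 2.22 CPM in WT and 11 ± 1.71 CPM in Dnmt3b KO. Over all pairs of a gene and a class that passed the filter on low counts, 1.26% had every Dnmt3b KO embryo below WT and 0.0349% were called lower. From here on, all pairs means all pairs that passed this filter. The fitted log2 ratios ran from -1.72 in presomitic mesoderm to -1.21 in hindbrain and spinal cord, so the classes differed less among themselves than each differed from WT. Without Dnmt3b KO 11, without Dnmt3b KO 12 or without both, 16 of 16 classes still lay below WT.

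With Gm4737 added, the gap by class was smaller. The sum of both genes in Dnmt3b KO was at 55.1% to 70.6% of WT, and every library lay below WT in 12 of 16 classes. The other 4, endothelium, ExE mesoderm, hindbrain and spinal cord, and surface ectoderm, overlapped WT. In erythroid cells the sum was 17.4 ± 2.50 CPM in WT (SD, n = 7) and 10.9 ± 1.17 CPM in Dnmt3b KO (SD, n = 3), 62.4% of WT, where Ahcy alone was at 30.3%. Without Dnmt3b KO 12, 14 of 16 classes lay below WT, and without Dnmt3b KO 11 there were 12.

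Ahcy was called in none of 18 classes in Dnmt3a KO and in none of 6 in Dnmt1 KO by edgeR, where 0.0186% and 4.59% of all pairs of a gene and a class were called lower and 0.0986% and 4.68% higher. At an unadjusted p under 0.05, 14 of 18 and 2 of 6 classes passed, beside 10.2% and 42% of all pairs, and DESeq2 called none in either group. The classes come from the same embryos, so they do not count as separate results. Class levels with Gm4737 added are given for Dnmt3b KO only. In Dnmt3a KO, all embryos lay below WT in 4 classes, namely cardiomyocytes, immune cells, notochord and surface ectoderm, beside 0.464% of all pairs. The fitted log2 fold changes ran from -1.06 in notochord to -0.22 in NMP. The notochord value rests on 19 UMIs in 3 Dnmt3a KO embryos and 58 UMIs in 4 WT embryos (SE 0.36, edgeR adjusted p = 0.816). The largest surface ectoderm cluster was 10 in Dnmt3a KO (54.3%) and 11 in WT (54.1%), and the part of this in the result was not tested. In Dnmt1 KO cardiomyocytes Ahcy had 24.5 ± 3.49 CPM (SD, n = 3) against 17.5 ± 3.63 CPM in WT (SD, n = 7), a log2 fold change of 0.60 (SE 0.15, edgeR adjusted p = 0.00254) that was below the fold needed for a call. All Dnmt1 KO cardiomyocytes were in cluster 26, whereas 74.1% of those of WT were in cluster 4, and the part of this in the result was not tested.

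For Gm14226 the class levels in Dnmt3b KO were 0 to 13.4% of those in WT. In presomitic mesoderm 4 UMIs were counted over all Dnmt3b KO libraries, 0.39 ± 0.30 CPM (SD, n = 3), against 115.9 ± 14.9 CPM in WT (SD, n = 7). In somitic mesoderm no UMI was counted in Dnmt3b KO. At the depth of all 4 libraries in this class, this allows up to 0.141 CPM, 126-fold lower than the 17.8 CPM of WT. That depth counts Dnmt3b KO 1 and 2 separately. With the pair counted as 1 embryo, the limit would be higher and the fold smaller. Cranial mesenchyme had 0.13 ± 0.08 CPM in Dnmt3b KO (SD, n = 3) against 31.2 ± 5.92 CPM in WT (SD, n = 7). In 3 other classes the remaining share was larger. Cardiomyocytes had 0.50 ± 0.23 CPM from 12 UMIs, 12.6% of the 3.94 CPM of WT, endothelium 0.32 ± 0.28 CPM from 8 UMIs, 13.4% of the 2.42 CPM of WT, and pharyngeal mesoderm was at 7.91% of WT. The largest endothelium cluster was 29 in Dnmt3b KO (57% of these cells) and 22 in WT (50.05%), and the part of this in the result was not tested. Without Dnmt3b KO 12 the Dnmt3b KO means were 0.221 CPM in presomitic mesoderm, 0.0796 CPM in cranial mesenchyme and 0.486 CPM in endothelium. In 9 of 16 classes, 7 of the 12 that passed the filter, every Dnmt3b KO library lay below WT, beside 1.26% of all pairs. The count of 9 was the same without Dnmt3b KO 11, 12 or both. In the 7 of 16 classes that overlapped WT, at least 1 WT embryo had no UMI. Presomitic mesoderm was present in Dnmt3b KO, at 0.78% to 2.87% of cells against 1.37% to 4.50% in WT.

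In Dnmt1 KO embryos Gm14226 appeared in classes where WT had little. It was called higher in 3 of the 4 classes that passed the filter on low counts, beside 4.68% of all pairs of a gene and a class. Endothelium had 31.9 ± 19.5 CPM (SD, n = 3) against 2.42 ± 2.33 CPM in WT (SD, n = 7), a log2 fold change of 3.59 (edgeR adjusted p = 7.69e-06). ExE mesoderm had 8.20 ± 3.82 CPM against 1.26 ± 1.06 CPM (log2 fold change 2.58, edgeR adjusted p = 6.78e-05) and cardiomyocytes 14.1 ± 1.74 CPM against 3.94 ± 2.46 CPM (log2 fold change 1.76, edgeR adjusted p = 0.00176). ExE endoderm did not pass, at 0.17 ± 0.21 CPM against 0.26 ± 0.18 CPM. No cell of Dnmt1 KO embryos was classed as presomitic mesoderm, and 69.1% to 81.9% of the Gm14226 UMIs were in cells of unnamed clusters. The cluster with the most cells was 26 in Dnmt1 KO and 4 in WT for cardiomyocytes, and 39 and 5 for ExE mesoderm, and the part of this in the result was not tested, nor was that of Gm35533 and Gm37350, whose higher whole-embryo levels in Dnmt1 KO are given above. In Dnmt3a KO, Gm14226 was called in none of 12 classes by edgeR, beside 0.0986% of all pairs called higher and 0.0186% called lower. There were 2 classes at an unadjusted p under 0.05, beside 10.2% of all pairs, and none was called by DESeq2.

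**Figure D3:**
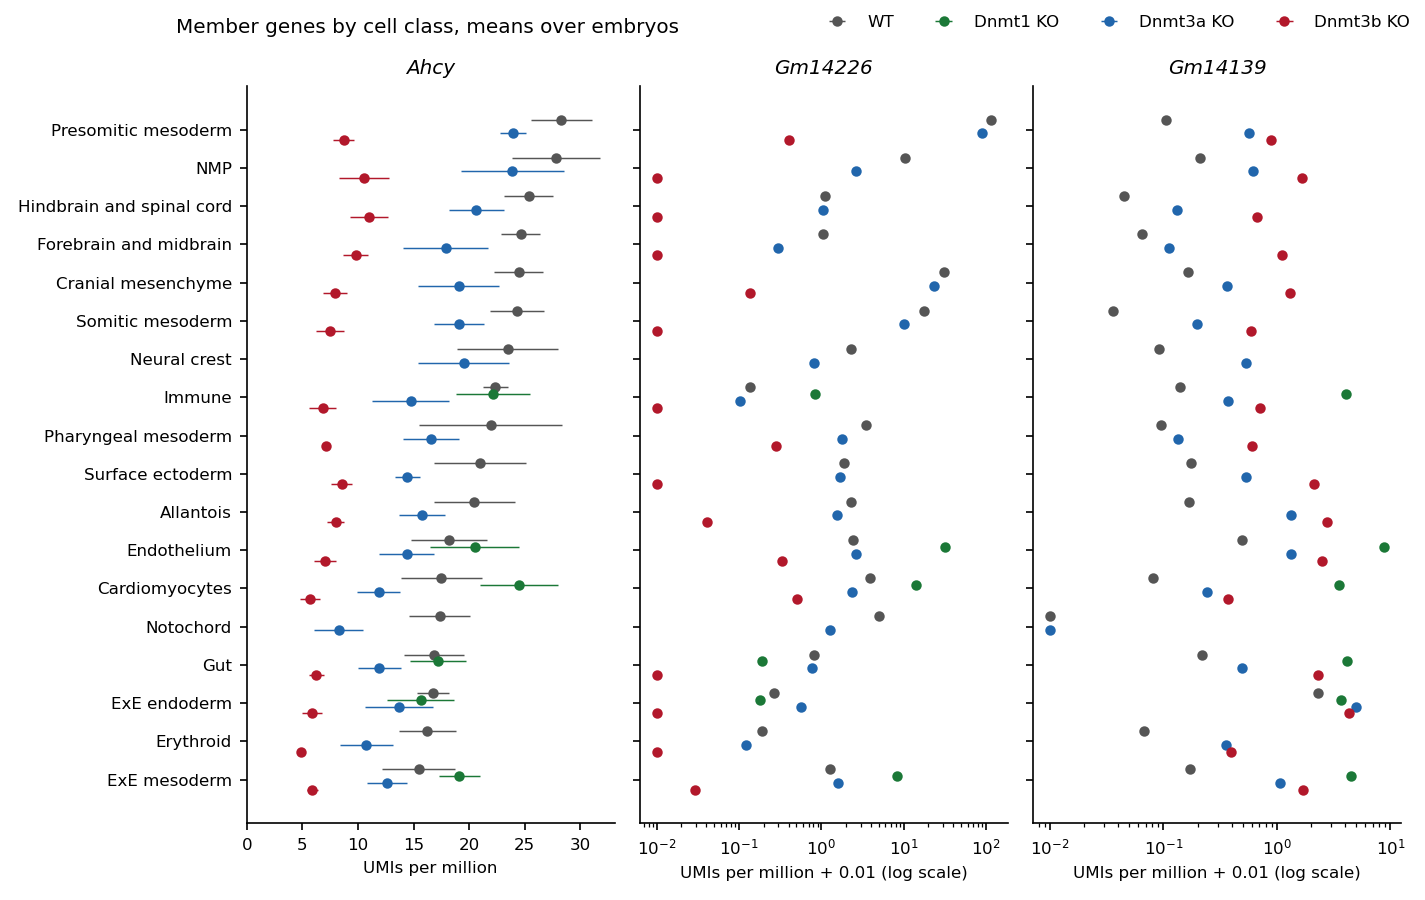
Mean CPM of Ahcy, Gm14226 and Gm14139 (horizontal axes; log scale of CPM + 0.01 for the last 2) in each cell class, ordered by the WT level of Ahcy, with 1 point per group and 1 SD over embryos as bars for Ahcy. The Dnmt3b KO points lie left of WT in each of 16 classes for Ahcy, the Dnmt1 KO points for Gm14139 lie at 3.54 to 8.84 CPM in 6 classes, and points at 0.01 in the log panels are classes with no UMI.

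Gm14139 was called higher in 4 of the 5 Dnmt1 KO classes that passed the filter on low counts, beside 4.68% of all pairs. The filter needs enough counts in a few embryos of any group, so a high Dnmt1 KO level can itself bring a class in. In 6 of 6 classes every Dnmt1 KO embryo lay above WT, and in 5 of the 5 that passed the filter, beside 11.9% of all pairs. With at least 50 cells required per embryo in place of 25, 2 classes were called. Endothelium and gut then had too few Dnmt1 KO embryos to be fitted, so their calls were not retested. In cardiomyocytes the log2 fold change was 5.45 (SE 0.73), with 3.54 ± 0.40 CPM (SD, n = 3) against 0.071 ± 0.189 CPM in WT (SD, n = 7; edgeR adjusted p = 7.14e-06), where the WT value rests on 2 UMIs and the largest cluster differed between the groups, as given above. Cardiomyocytes passed the filter through Dnmt1 KO, with 86 UMIs there against 4 in Dnmt3a KO and 10 in Dnmt3b KO, so this call is not independent of the filter. Endothelium, ExE mesoderm and gut had log2 fold changes of 4.62, 4.59 and 4.55 and edgeR adjusted p-values of 3.21e-06, 4.92e-08 and 4.18e-05. Their WT levels rest on 16, 12 and 10 UMIs and their Dnmt1 KO levels on 32, 176 and 23. These calls too cannot be taken as independent of the filter. ExE endoderm, the class with the highest WT level among the 17 tested in WT, was no call, with 3.69 ± 0.52 CPM (SD, n = 3) against 2.28 ± 0.59 CPM in WT (SD, n = 7; log2 fold change 0.75, edgeR adjusted p = 0.0207). ExE ectoderm, not among these 17, was 4.73% to 31.2% of the cells of a Dnmt1 KO embryo and 0% to 1.77% in WT. The tissue makeup of the signal also differed, since ExE endoderm held 4.43% to 26.4% of the Gm14139 UMIs in Dnmt1 KO, ExE ectoderm 20.1% to 69.1% and epiblast-like cells 6.64% to 33.0%.

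In Dnmt3a KO, Gm14139 was called in 1 of 7 classes, ExE endoderm, with 4.96 ± 0.30 CPM (SD, n = 4) against 2.28 ± 0.59 CPM in WT (SD, n = 7; log2 fold change 1.11, edgeR adjusted p = 0.00448), beside 0.0986% of all pairs called higher. Most of these cells were in cluster 3 in Dnmt3a KO (73.4%) and in cluster 28 in WT (51.9%), and the part of this in the result was not tested. This single call was lost when any one of 6 embryos was left out, Dnmt3a KO 13 and 14 and WT 3, 4, 6 and 7. All Dnmt3a KO embryos lay above WT in 5 of 18 classes, 3 of the 7 that passed the filter, beside 1.15% of all pairs. In Dnmt3b KO every library lay above WT in 9 of 16 classes, 4 of the 7 that passed the filter, beside 2.93% of all pairs (0.67% were called higher). The count of 9 was the same without Dnmt3b KO 11, 12 or both. ExE endoderm was not among the 9, at 4.30 ± 1.70 CPM (SD, n = 3). Surface ectoderm, for example, had 2.10 ± 1.31 CPM in Dnmt3b KO (SD, n = 3) against 0.17 ± 0.16 CPM in WT (SD, n = 7), and allantois 2.73 ± 1.63 CPM (SD, n = 3) against 0.16 ± 0.11 CPM (SD, n = 5). Dnmt3b KO 12 was the highest library in both, at 3.60 and 4.61 CPM, and without it the means were 1.35 and 1.79 CPM, still above WT in each library.

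Slc52a3 could be fitted in ExE endoderm only. There it was called lower in Dnmt1 KO, with 0.74 ± 0.42 CPM (SD, n = 3) against 2.67 ± 0.61 CPM in WT (SD, n = 7; log2 fold change -1.63, SE 0.30, edgeR adjusted p = 0.000739), beside 4.59% of all pairs called lower. Most Dnmt1 KO cells of this class were in cluster 37 and most WT cells in cluster 28, and the call was lost with a covariate for Y-linked expression. ExE endoderm held 18.2% to 73.3% of the Slc52a3 UMIs of a Dnmt1 KO embryo and ExE ectoderm, the precursor of part of the placenta, 16.7% to 63.6%. In Dnmt3a KO, ExE endoderm had 1.64 ± 0.48 CPM of Slc52a3 (SD, n = 4; log2 fold change -0.70, edgeR adjusted p = 0.144), and in Dnmt3b KO 0.84 ± 0.23 CPM (SD, n = 3), 31.4% of WT, with every Dnmt3b KO library below WT, beside 1.26% of all pairs. Without Dnmt3b KO 11 or 12 it was at 36.1% or 30.7% of WT. ExE endoderm was 8.76% to 14.6% of the cells in Dnmt3b KO.

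The members share a place on the chromosome, so the other genes of that stretch were counted. Within 5 Mb of Dnmt3b lie 249 of the counted genes, and 159 that are not members passed the filter. In Dnmt3b KO, 4 of these were called higher and 2 lower by edgeR, 3.77%, where 1.97% of all tested genes were called. By direction, 2.52% were called higher and 1.26% lower, beside 1.93% and 0.0372% of all tested genes. At an unadjusted p under 0.05 there were 48 of the 159, 30.2%, where 18.1% of all tested genes passed. Those higher were Defb25, a beta-defensin (log2 fold change 3.13, edgeR adjusted p = 0.00621), Bpifb5 (1.38, 0.00587), Myl9, a myosin light chain of smooth muscle (1.10, 0.00339), and BC029722 (1.10, 0.00145). Those lower were the antisense gene Gm16098 (-2.58, 0.00676) and D630003M21Rik (-1.62, 0.00241). Without Dnmt3b KO 12 none of the 6 was called, and without Dnmt3b KO 11, WT 1, WT 4, WT 6 or WT 7 there were 3 calls in the window. The median size of the log2 fold change was 0.24 in the window and 0.19 over all genes.

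The 3 nearest tested genes on each side of Dnmt3b, Ahcy, Slc52a3 and Gm14139 were measured too, those of Gm14139 being added after other values were seen. Of these 23 genes other than members, edgeR called none in Dnmt3b KO, also without Dnmt3b KO 11 or 12. At an unadjusted p under 0.05 there were 10, where 18.1% of all tested genes passed, and DESeq2 called 2, Angpt4 and Bpifb4, both higher. Around Ahcy, the translation factor gene Eif2s2 had a log2 fold change of -0.09 (edgeR adjusted p = 0.843) and the ubiquitin ligase gene Itch of -0.34 (edgeR adjusted p = 0.166). Dynlrb1, a dynein light chain gene 162 kb from Ahcy, had 162.4 ± 19.6 CPM in WT (SD, n = 7) and 112.7 ± 11.8 CPM in Dnmt3b KO (SD, n = 3). Its log2 fold change of -0.56 had an edgeR adjusted p of 0.00497 but was below the fold needed. Map1lc3a, an autophagy gene 202 kb away, differed in the other direction (log2 fold change 0.61, edgeR adjusted p = 0.00606). Without Dnmt3b KO 11 or 12 the lowest adjusted p around Ahcy was 0.016 or 0.015. Around Slc52a3, Fam110a, Gm14154, Angpt4, Scrt2, Srxn1 and Tcf15 had log2 fold changes from -0.56 to 1.51 and adjusted p-values of 0.0317 or more. Around Dnmt3b, the log2 fold changes of Dnmt3bos, Commd7, Nol4l, Mapre1, Efcab8 and Bpifb4 ran from -0.12 to 1.80, with adjusted p-values of 0.0162 or more. Around Gm14139, 6 genes including the zinc finger genes Zfp120 and Zfp937 ran from -0.74 to 1.02 in Dnmt3b KO, with adjusted p-values of 0.047 or more. One of these, Gm14124, 64.2 kb from Gm14139, was called higher in Dnmt1 KO, with 6.47 ± 2.03 CPM (SD, n = 3) against 0.27 ± 0.08 CPM in WT (SD, n = 7; log2 fold change 4.64, edgeR adjusted p = 1.65e-09). The other 5 were not called there.

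The other groups were counted in the same way. In Dnmt1 KO, 14 of the 159 genes were called higher and 5 lower, 11.9%, where 14.4% of all genes were called. In Dnmt3a KO none was called by edgeR, where 0.212% of all genes were, with 20 at an unadjusted p under 0.05, 12.6% beside 9.49% of all genes, and 1 by DESeq2, which called 110 genes in all. For comparison, 5 of 99 tested genes within 5 Mb of Dnmt1 were called in Dnmt1 KO by edgeR.

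**Figure D4:**
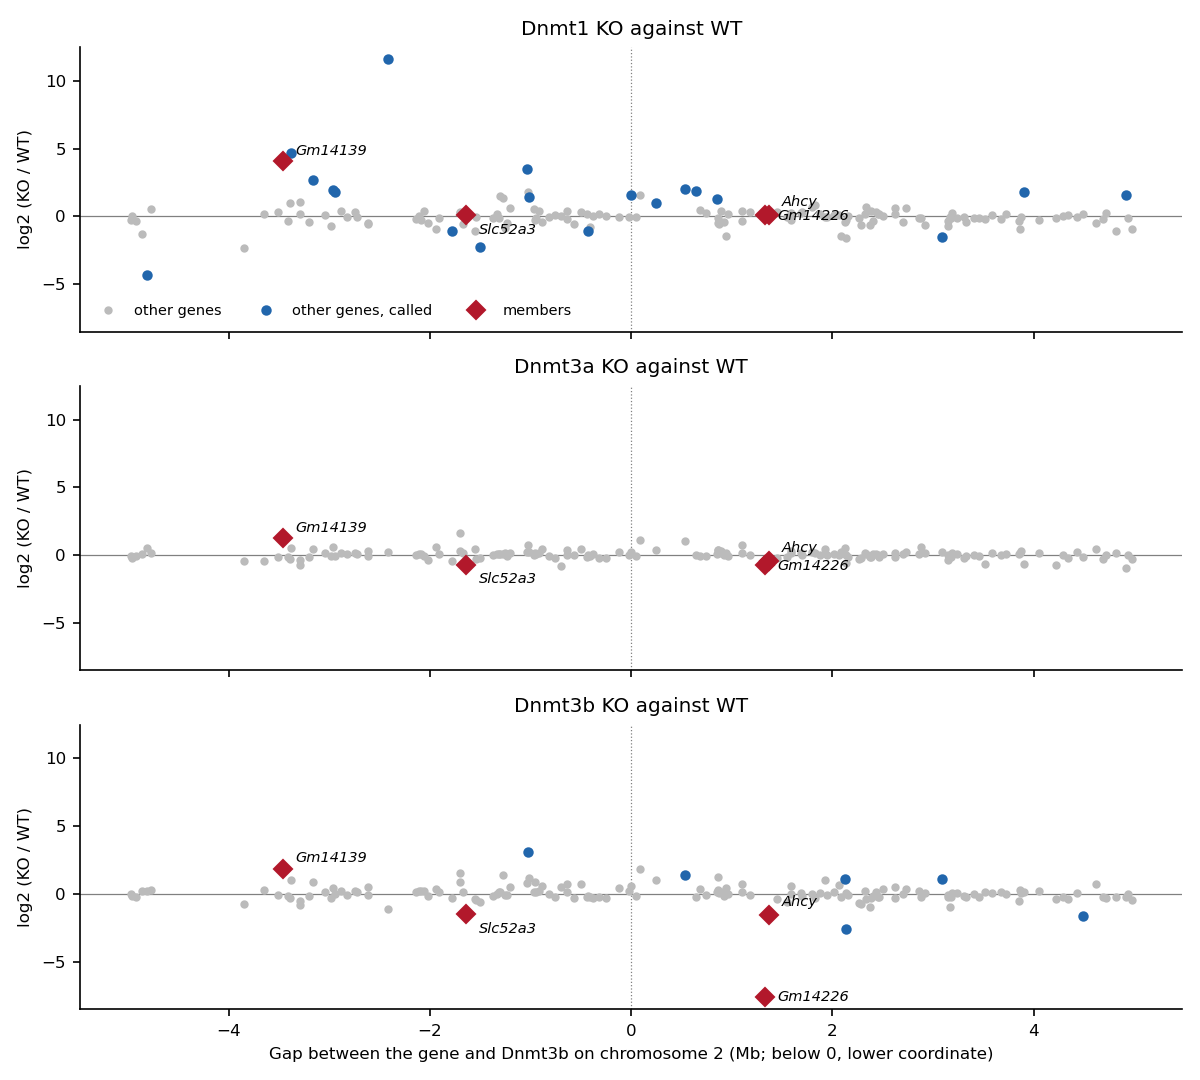
Fitted log2 ratio of KO to WT (vertical axis) for each tested gene within 5 Mb of Dnmt3b against its gap to Dnmt3b in Mb (horizontal axis; below 0 at lower coordinates), 1 panel per KO group, with members as diamonds and other called genes in blue. In the Dnmt3b KO panel Gm14226 lies lowest at -7.63, while its neighbour Ahcy is at -1.53 and most other genes lie near 0.

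Apart from Ahcy, which was not tested there, no gene of the Ahcy pathway was called in Dnmt3b KO. The list held 31 genes of the methionine cycle and the folate and polyamine reactions tied to it. Of the 30 other than Ahcy none was called by edgeR, where 1.97% of all genes were, and 30 genes are too few to set apart from this share. There were 4 at an unadjusted p under 0.05, beside 18.1% of all genes, and none was called by DESeq2. Their log2 fold changes ran from -0.81 for Nnmt to 0.79 for Mat1a, with a median of -0.00012 beside -0.01 over all genes. The AHCY-like genes Ahcyl1 and Ahcyl2 had log2 fold changes of -0.06 and -0.14 in Dnmt3b KO (edgeR adjusted p = 0.713 and 0.496). In Dnmt3a KO none of the 30 was called by edgeR either, with 1 at an unadjusted p under 0.05, beside 9.49% of all genes, and none by DESeq2. In Dnmt1 KO 11 of the 30 had an unadjusted p under 0.05, beside 46.1% of all tested genes, and 6 an adjusted p under 0.01. Of the 6, 2 were called higher, both from low levels: Bhmt, which remethylates homocysteine with betaine, with 0.183 ± 0.049 CPM (SD, n = 3) against 0.038 ± 0.023 CPM in WT (SD, n = 7; log2 fold change 2.18, edgeR adjusted p = 0.000192), and Mat1a, a liver form of the S-adenosylmethionine synthetase, with a log2 fold change of 1.55 (edgeR adjusted p = 0.0029). Without Dnmt1 KO 3 only 1 of these was called. The other 4 were below the fold needed for a call: Mat2a and Mat2b, which encode subunits of the other S-adenosylmethionine synthetase, had log2 fold changes of -0.60 and -0.56, Cth, of the step from cystathionine to cysteine, -0.52 and Ahcyl2 0.48 (edgeR adjusted p = 0.000684, 1.22e-05, 0.00892 and 0.00125).

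Among the 4 other genes of riboflavin transport and flavin cofactor synthesis, Slc52a2, Rfk, Flad1 and Slc25a32, none was called in any KO group by edgeR or by DESeq2, where edgeR called 14.4%, 0.212% and 1.97% of all genes in Dnmt1 KO, Dnmt3a KO and Dnmt3b KO. At an unadjusted p under 0.05 there were 1, 0 and 0, beside 46.1%, 9.49% and 18.1% of all genes, and 4 genes are too few to set apart from these shares. Slc52a2, a transporter of the same family, had 12.2 ± 1.92 CPM in WT (SD, n = 7) and 14.9 ± 0.94 CPM in Dnmt3b KO (SD, n = 3), a log2 fold change of 0.25 (edgeR adjusted p = 0.372).

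Over the 17 independent libraries, the gene whose level was most like that of Ahcy among 12609 genes with a mean of at least 1 CPM was Gm14226, by Pearson's r of log2(CPM + 0.5), at 0.942. Dynlrb1 and Rprd1b, also on chromosome 2, followed with 0.871 and 0.846, and then 2700016F22Rik on chromosome 4 with 0.816 and Mapk8ip2 on chromosome 15 with 0.812. In each of the 5 genes Dnmt3b KO had the lowest mean of the 4 groups, and the choice of Ahcy and Gm14226 by their low Dnmt3b KO levels enters this rank. Over the 14 libraries without Dnmt3b KO, r with Ahcy was 0.597 for Gm14226, at rank 213, 0.694 for Dynlrb1 and 0.889 for Rprd1b, at rank 1.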

How the data were processed

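Transcripts of single E8.5 embryos were counted by 10x Genomics 3′ chemistry, version 3. Deposited values are raw UMI counts per gene and barcode that the authors made with Cell Ranger and deposited without normalisation. The file headers name Cell Ranger 3.1.0, and 5.0.0 for Dnmt3b KO 12. For Dnmt3b KO 11, Dnmt3a KO 1 and 13, and WT 1, the reference joined the human and mouse genomes, and human AHCY and SLC52A3 had 0 UMIs. Groups followed the labels, and nothing in them ties embryos to litters or runs.

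Counts were summed per embryo over barcodes with 1500 or more mouse UMIs (128881 barcodes) and fitted for all 4 groups at once in edgeR 4.0.16 (R 4.3.3; TMM scaling, filterByExpr, quasi-likelihood test), with Benjamini-Hochberg adjustment over 18836 genes. The thresholds of the calling rule were those of the study. The study did not run its tests on summed counts, so its calls are not directly comparable with these. Dnmt3b KO 1 and 2 entered as 1 unit, the rounded mean of their counts, which gave 17 units. Intervals and limits from counts cover counting error only, and a count of 0 allows up to 3 counts.

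For cell classes, barcodes with over 30% mitochondrial or over 35% ribosomal protein counts and Scrublet doublets (7646) were removed, which left 107980 cells in 43 clusters (scanpy 1.11.5, Leiden resolution 2), 35 of them named. Members were kept out of the clustering. Unnamed clusters held 6.15% to 34.5% of an embryo's cells. A class needed 25 cells per embryo. Near-copies were found with BLAST 2.17.0. The fits were tested on simulated data. DESeq2 1.42.0 was an alternative.

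Genes named were the members, the targeted genes, called genes within 5 Mb of Dnmt3b, the 3 nearest tested genes on each side of Dnmt3b, Ahcy and Slc52a3, called genes and AHCY-like genes of the pathway lists, the lists' other members by range, and the 5 genes most correlated with Ahcy. Gm4737, Gm35533 and Gm37350 (the 2 of 7 counted near-copies of Gm14226 that were high in Dnmt1 KO), the overlapping genes a and Gm45609, the neighbours of Gm14139 and pathway genes with an adjusted p under 0.01 but no call were added after values were seen, as were class levels with Gm4737 added or without Dnmt3b KO 11 and 12. Members and lists were chosen with earlier results of these data known.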

Additional observations from a re-analysis of the deposited data

Results flagged for a closer look

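Gm4737, the near-identical copy of Ahcy on chromosome 16, stood apart in 1 of the 7 WT embryos. WT 2 had 6.82 CPM, whereas the other 6 ranged from 0.313 to 0.640 CPM, so that the gap from WT 2 to its nearest neighbour exceeded the 95% critical value of Dixon's test for 7 samples. Of 14 sets of values examined in this way, the members, Gm4737, Dnmt3b and the sum of Ahcy and Gm4737 in the WT and the Dnmt3a KO libraries, this was the only one. Gm4737 was looked at after its values were seen, so the chance rate of about 1 in 20 per set does not apply to it. WT 2 also had the lowest WT levels of Ahcy, Gm14226 and Slc52a3, at 17.5, 8.65 and 0.186 CPM, and the highest WT level of Gm14139, at 0.585 CPM. The cause was not tested.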

How the results depend on the processing

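The 15 whole-embryo results for the members and targeted genes were recomputed under other settings, and 148 of 168 such values kept their direction and side of the threshold or, in Dnmt3b KO, where members were not tested, moved by less than 1 SD of log2 CPM between the Dnmt3b KO embryos. Another 5 untested values kept their direction and moved by more. The level of Ahcy in Dnmt3b KO moved, among these settings, only with the counts of Gm4737 added, an alternative chosen after seeing the data (log2 ratio -0.70). For Gm14226 in Dnmt3b KO the ratio was -7.29 with all units thinned to the smallest total. Gm14139 in Dnmt3a KO became a call with DESeq2 (1.27), with no filter on low counts (1.31) and with only the compared groups in the fit (1.28). Slc52a3 turned to 0.036 in Dnmt3a KO and moved to -0.99 in Dnmt3b KO with a covariate for Y-linked genes, and moved to -1.88 there when thinned. The log2 fold change of Dnmt3b in Dnmt3b KO, -0.0019, changed sign around 0: 0.0064 with RLE scaling and with DESeq2, 0.018 without the filter, 0.0072 in quality-filtered cells, 0.17 with the Y-linked and 0.073 with the reference covariate, 0.0078 with the compared groups and 0.020 thinned.

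Over all genes, calls in Dnmt3a KO (40) became 110 with DESeq2, 66 with the Y-linked covariate and 23 thinned, and those in Dnmt3b KO (371) became 232 with the compared groups and 190 thinned. Near Dnmt3b, other genes called in Dnmt3a KO (0) became 1 with DESeq2 or the Y-linked covariate, and in Dnmt3b KO (6) 2 thinned. The 2 methionine cycle calls in Dnmt1 KO became 1 with the Y-linked covariate and 0 thinned. By class, calls of Gm14139 in Dnmt1 KO (4) became 2 with at least 50 cells, where endothelium and gut could not be fitted. Those in Dnmt3a KO (1) became 2 with DESeq2, the Y-linked covariate or no filter. The Slc52a3 call in Dnmt1 KO ExE endoderm became 0 with the Y-linked covariate.

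Libraries with the same replicate number had correlations of deviations from their group means of -0.35 to 0.28. Pairs with different numbers were not computed, so these values do not show whether the numbers pair the samples. With the replicate number as a block, the log2 fold changes were 0.059 for Gm14226 in Dnmt3a KO, 0.90 for Gm14139 in Dnmt3b KO, 0.30 for Dnmt3b in Dnmt3b KO and -1.55 for Dnmt3a in Dnmt3a KO (edgeR adjusted p = 0.0703, no call). Calls under the block were 1414, 1 and 5 genes in Dnmt1 KO, Dnmt3a KO and Dnmt3b KO, 11 and 0 other genes near Dnmt3b in Dnmt1 KO and Dnmt3b KO, and 1 methionine cycle gene in Dnmt1 KO.

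Leaving out 1 library at a time gave log2 ranges of -0.59 to 0.44 for Gm14226 and -0.29 to 0.49 for Slc52a3 in Dnmt1 KO (reversed without Dnmt1 KO 3, and without WT 2, Dnmt1 KO 1 or Dnmt1 KO 2), 1.15 to 1.38 for Gm14139 in Dnmt3a KO (a call without WT 2, Dnmt1 KO 2 or Dnmt3b KO 12), -7.95 to -7.34 for Gm14226 in Dnmt3b KO (the extremes without Dnmt3b KO 1 and 2), -0.084 to 0.088 for Dnmt3b in Dnmt3b KO and -1.72 to -1.60 for Dnmt3a in Dnmt3a KO, which lost its call without Dnmt3a KO 1, 2 or 13. Calls ranged from 23 to 81 genes in Dnmt3a KO (23, 25, 26, 73 and 81 without Dnmt3a KO 13, Dnmt3a KO 2, WT 3, WT 2 and Dnmt3b KO 12), from 183 (without Dnmt3b KO 12) to 372 in Dnmt3b KO, and from 1 (without Dnmt1 KO 3) to 2 methionine cycle genes in Dnmt1 KO. Other genes called near Dnmt3b ranged from 0 to 1 in Dnmt3a KO (1 without Dnmt3b KO 12) and from 0 to 8 in Dnmt3b KO (0 without Dnmt3b KO 12, and 3 without Dnmt3b KO 11, WT 1, WT 4, WT 6 or WT 7). Classes called for Gm14139 in Dnmt3a KO ranged from 0 (without Dnmt3a KO 13 or 14, or WT 3, 4, 6 or 7) to 2 (without Dnmt3b KO 12). The causes were not tested. Depth limits the class values of Gm14139 and Slc52a3, which often rest on a few UMIs.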
